A study of Mus musculus with 6 samples.

Results

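The genes described here encode proteins that bring fatty acids into muscle and burn them, together with a pair of uncoupling carriers. They are Lpl, Cd36, Fabp3, Cpt1b, Cpt2, Acadm, Hadha, Pdk4, Ucp2 and Ucp3, chosen by name, 10 of 21827 protein-coding gene names in the GENCODE annotation of GRCm38. A Maf or H3K27ac region was counted for a gene when it touched the gene or the 50 kb to either side of any of its transcript starts. ChIP-seq had been made in nuclei of gastrocnemius and quadriceps, hindlimb muscles that are mostly fast, from WT mice aged 2 months, with 2 Maf samples, 2 H3K27ac samples and 2 inputs, and all groups shared this genotype, tissue and age. No treatment or mutant was part of these samples. The methods cite an earlier protocol for isolating these nuclei and describe no sorting of myofiber nuclei for ChIP-seq. Whether that protocol sorts them, and whether animals were pooled, is not given in the sources used here. Maf is a basic leucine zipper transcription factor, and the mapping asked which genes it targets in myofibers. H3K27ac is an acetylation of histone H3 that marks active promoters and enhancers.

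Muscle takes fatty acids from circulating triglyceride, carries them across the membrane and through the cytosol, passes them into mitochondria as carnitine esters, and shortens them by beta-oxidation. When fat is the fuel, pyruvate dehydrogenase is switched off so that glucose carbon is spared. The genes of this route are known targets of PPAR and ERR nuclear receptors in muscle, and several rise together in fasting and exercise.

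The H3K27ac lists held 44887 regions in replicate 1 and 44987 in replicate 2, with median lengths of 1476 and 1499 bp, and joined to 52540 regions. The Maf lists held 74 regions of 181 bp in replicate 1 and 5467 regions of 281 bp in replicate 2, which joined to 5486. The lists give positions with a score of 1 throughout, so read depth is unknown and the place of a region in its list was the only measure of order. Place 1 is the first line. In the H3K27ac lists place went with length (Spearman rho of -0.929 and -0.936 over the regions of 1 sample each), but no column says that this order follows strength. All 8 skeletal muscle markers had H3K27ac within 1 kb of a start in both replicates, and none of 4 heart or 6 liver markers had it in either. The markers of other resident cells had it too, at 6 of 6 endothelial and 5 of 6 macrophage genes in each replicate and at 4 and 3 of 6 adipocyte genes in replicates 1 and 2.

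Maf regions were counted for 7 of the 10 genes, namely Lpl, Fabp3, Acadm, Hadha, Pdk4, Ucp2 and Ucp3, and for none of Cd36, Cpt1b and Cpt2. Among all protein-coding genes 30.6% had such a region (6685 of 21827), and among the 12735 genes with H3K27ac at a promoter 41.2% had one (5245). The count of 7 rested on 7 distinct Maf regions, and both of those counted for Ucp2 were the ones counted for Ucp3. Only 4 of the 7 regions had a start of 1 of the 10 genes as their nearest protein-coding start, at Ucp3 (2 regions), Pdk4 and Lpl. The others lay nearest to Rabggtb, Gm10570 and Hadhb. By nearest start, 3 of the 10 genes thus had a Maf region, and the share of all protein-coding genes under this rule was not computed. The margins were small at Fabp3 and Hadha. The Fabp3 region lay 9923 bp from the Gm10570 start and 10002 bp from that of Fabp3. The Hadha region lay 16862 bp from the Hadhb start and 16972 bp from that of Hadha.

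All 7 Maf regions came from the replicate 2 list. The replicate 1 list placed no region at any of the 10 genes, and it placed 1 at 130 of all protein-coding genes (0.596%), so its 0 is read against a list that marks few genes. The Maf results on these genes therefore have no replicate.

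The sequences of the regions at Ucp3 are shown first because these regions stood closest to a start among the 10 genes. Ucp3 encodes the uncoupling protein of skeletal muscle, a carrier of the mitochondrial inner membrane. Capitals mark CAGCTG, the E-box bound by myogenic bHLH factors such as MyoD, and the sequences come from the RefSeq copy of GRCm38.p6.
Ucp3 intron, place 177, chr7:100474812-100475092, plus strand: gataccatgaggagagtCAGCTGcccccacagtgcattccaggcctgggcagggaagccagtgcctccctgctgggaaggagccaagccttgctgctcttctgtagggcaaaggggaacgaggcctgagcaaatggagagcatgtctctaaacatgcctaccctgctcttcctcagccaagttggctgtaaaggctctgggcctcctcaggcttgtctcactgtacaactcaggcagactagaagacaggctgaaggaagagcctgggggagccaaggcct
Ucp3 upstream, place 971, chr7:100470863-100471143, plus strand: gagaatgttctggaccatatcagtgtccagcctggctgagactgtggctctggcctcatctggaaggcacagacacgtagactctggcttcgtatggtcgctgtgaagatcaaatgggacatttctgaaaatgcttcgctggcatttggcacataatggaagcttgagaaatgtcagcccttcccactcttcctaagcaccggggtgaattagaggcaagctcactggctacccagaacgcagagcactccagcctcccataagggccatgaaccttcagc
The intronic region held 1 CAGCTG, whose centre lay 120.5 bases from the centre of the region, near its edge. Neither region held TGCTGA, the core that Maf proteins read in the Maf recognition element.

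Of the other 5 Maf regions, the 4 that held TGCTGA are shown as the stretch around it, with that core and any letters adjoining it in a longer motif in capitals. The minus strand is given where the core lay on it. In Lpl the capitals join TGCTGA with an overlapping AP-1 site, and in Hadha they show TGCTGAC, the core with 1 more base of the Maf element.
Pdk4 upstream, chr6:5509578-5509643, plus strand: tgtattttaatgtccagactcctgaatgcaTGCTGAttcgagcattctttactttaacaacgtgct
Lpl downstream, chr8:68908849-68908914, minus strand: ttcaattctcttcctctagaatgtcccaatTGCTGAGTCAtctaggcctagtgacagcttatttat
Fabp3 downstream, chr4:130318548-130318613, minus strand: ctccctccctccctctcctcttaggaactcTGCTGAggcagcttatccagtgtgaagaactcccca
Hadha upstream, chr5:30172078-30172144, plus strand: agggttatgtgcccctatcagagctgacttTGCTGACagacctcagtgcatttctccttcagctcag
The core lay 12.5 bases from the region's centre at Pdk4, 16.5 at Lpl, 16.5 at Fabp3 and 23.5 at Hadha. The median distance was 16.5 bases over these 4 and 26.5 over the 2778 replicate 2 regions that held the core, taking the core nearest the centre. This comparison was added after these values were seen.

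TGCTGA was present in 4 of the 7 regions, beside 50.8% of 5466 replicate 2 regions, searched on both strands. The longer TGCTGAC, which contains it, was present in 1 of 7 (22.8% of all). CAGCTG was present in 3 of 7, at Ucp3, Lpl and Hadha (24.3%), a Mef2 site in 1, at Hadha (7.68%), and an AP-1 site (TGACTCA on either strand) in 1, at Lpl (11.5%). A match to the ERR element or to the PPAR direct repeat with up to 2 mismatches was present in none of the 7, beside 0.640% and 4.21% of all regions. These are matches of letters and not measured sites.

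The highest-placed regions at these genes were those without the core. The Ucp3 intron stood at place 177 of 5467 (3.24% down the list), the region at the Rabggtb start in the Acadm window at 808 (14.8%), and the Ucp3 upstream region at 971 (17.8%), and none of the 3 held TGCTGA. The regions with the core stood lower, at 2053 for Pdk4 (37.6%), 2296 for Lpl (42.0%), 2477 for Fabp3 (45.3%) and 4317 for Hadha (79.0%). Over all regions the order ran the other way. With the list divided into 5 stretches of 1093 or 1094 regions, the share with TGCTGA was 69.3% in the first and 58.7%, 51.5%, 41.0% and 33.7% in those after it. This split by place was chosen after the regions had been seen, and 7 regions carry no test.

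**Figure D1:**
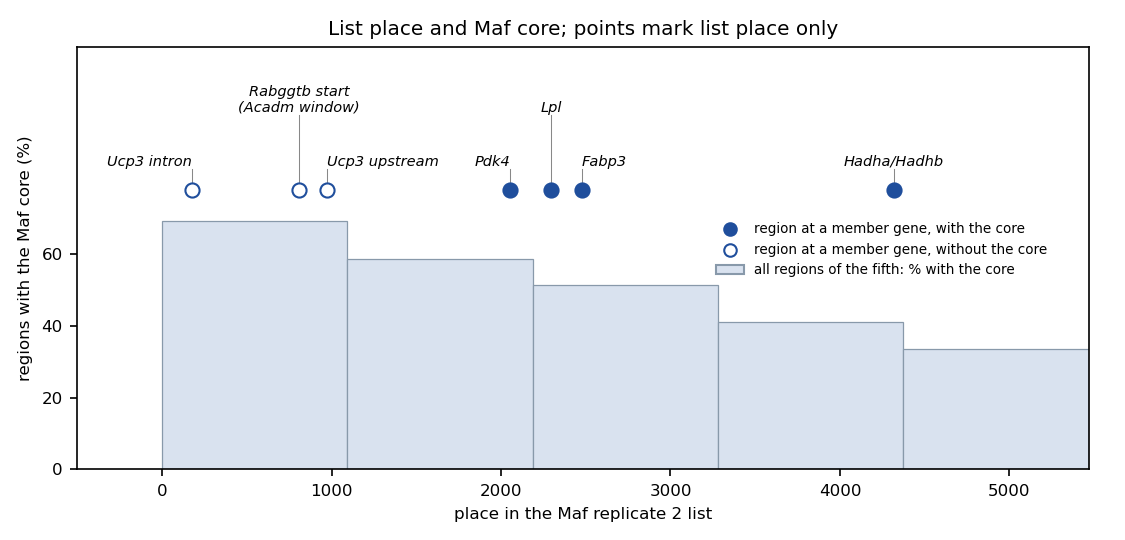
Place of the 7 Maf regions in the replicate 2 list (x axis, place 1 at the left) as points, filled where the region holds the Maf core (TGCTGA) and open where it does not; the height of a point carries no value. Bars give the percent of all regions with TGCTGA in each of 5 stretches of the list, 69.3% in the first and 33.7% in the last, and the 3 open points stand left of the 4 filled ones.

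The full Maf recognition element joins TGCTGA to TCAGCA, the same core read on the other strand, with a TRE-type or a CRE-type spacer between them. The best TRE-type match had 2 mismatches at Lpl and at Fabp3, and 12.5% of all replicate 2 regions had a match with 2 or fewer. The best CRE-type match at Pdk4 had 4 mismatches, and 18.0% of all regions had 4 or fewer. In the Ucp3 upstream region the best TRE-type match had 5 mismatches, and 97.6% of all regions had 5 or fewer. At the Ucp3 intron, the Rabggtb start and Hadha it had 4, beside 71.2% of all. This search was added after the cores had been seen.

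All 7 Maf regions overlapped H3K27ac, and did so in both H3K27ac replicates, beside 69.1% of all Maf regions (3793 of 5486) that overlapped the joined H3K27ac regions. No Maf region lay within 1 kb of a start of the 10 genes. Only Ucp3 and Fabp3 had one that reached to within 10 kb of a start, at Fabp3 by its edge alone, as the centre lay 10002 bp away. That is 2 of 10, beside 10.2% of all protein-coding genes (2231).

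H3K27ac was present at a promoter, within 1 kb of a start, in all 10 genes and in both replicates. The joined regions, which need only 1 replicate, gave 58.3% of all protein-coding genes (12735). Every listed start of the 10 genes lay inside an H3K27ac region in both replicates. The shares of all protein-coding genes that met these rules in both replicates were not computed. In all, 72 distinct H3K27ac regions were counted, 62 regions touching the windows in replicate 1 and 59 in replicate 2. Of the 72, 48 were present in both replicates (66.7%), 13 in replicate 1 alone and 11 in replicate 2 alone, and of all joined regions 67.0% were present in both. The regions found in both replicates had a median length of 2775.5 bp. Those found in 1 replicate had a median of 565 bp, and the longest of them, 19354 bp upstream of Lpl, had 1609 bp. For 46 of the 72 a start of 1 of the 10 genes was the nearest, and 8 were counted for both Ucp2 and Ucp3.

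The summed length of the H3K27ac regions counted for a gene had a median of 18231 bp over the 10 genes. It was 6258 bp over all protein-coding genes and 11258 bp over those with H3K27ac at a promoter. The longest region touching a promoter had a median of 5659 bp over the 10 genes, against 1302 bp over all protein-coding genes and 2219 bp over those with promoter H3K27ac. These lengths are those of whole regions, which may run past a window. In bulk tissue a shorter region from fewer nuclei of a type and one from weaker acetylation in each nucleus cannot be told apart.

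**Figure D2:**
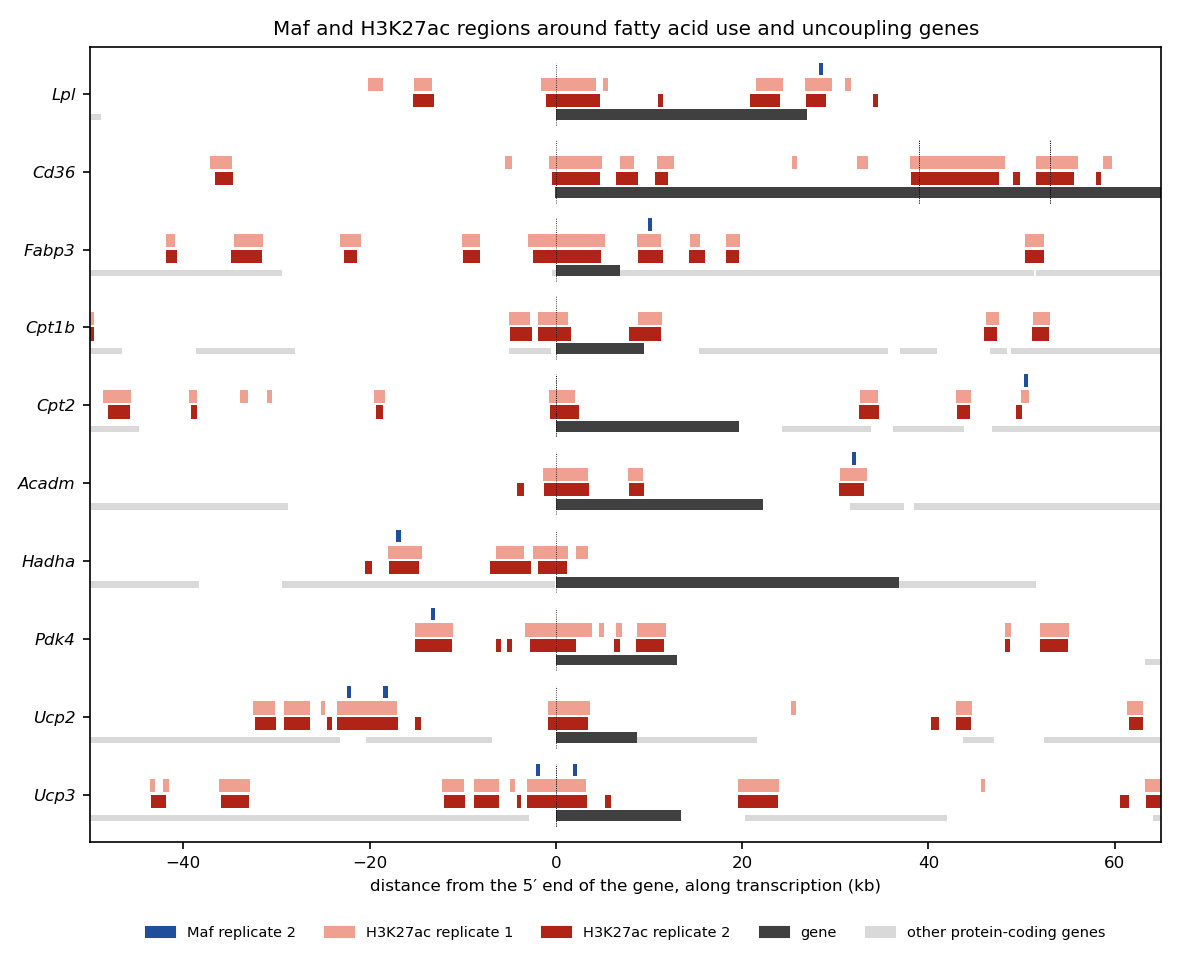
Map of H3K27ac regions in replicate 1 (light red) and replicate 2 (dark red) and of Maf regions (blue, replicate 2) around the 10 genes (dark grey), with other protein-coding genes in light grey and dotted lines at transcript starts; the x axis is the distance from the 5′ end in kb, along transcription. The map ends at 65 kb, so the 3′ end of Cd36 is not shown, and it draws some regions past 50 kb that were not counted. The Maf region at Cpt2 is 1 of these, with its centre 50297 bp from a start.

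The genes of lipid entry opened the route. Lpl encodes lipoprotein lipase, which frees fatty acids from circulating triglyceride at the capillary wall (ENSMUSG00000015568.16, chr8:68880491-68907448, plus strand). Its window held 7 H3K27ac regions with 16431 bp in replicate 1 and 6 regions with 14575 bp in replicate 2, and 64.7% of the bases found in either were found in both. Its promoter region had 5974 and 5860 bp and stood at places 913 and 1084, in the first 2.41% of each list. The joined region reached 1629 bp upstream of the start and 4773 bp into the gene, so most of it lay inside the gene. The Maf region lay 28374 bp downstream of the start, just past the end of the gene, within an H3K27ac region of 2821 bp that began before the gene end.

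Cd36 encodes the fatty acid translocase of the plasma membrane (ENSMUSG00000002944.15, chr5:17781690-17888801, minus strand). It had the largest summed H3K27ac length of the 10 genes, with 10 regions and 29658 bp in replicate 1 and 8 regions and 25790 bp in replicate 2. As the longest of the 10 genes, it also had the widest window, 157058 bp where the others had 100001 to 100051 bp. Set against the width of the window, the joined H3K27ac length of Cd36 was 20.4%. This was below the 23.6% of Ucp3 and the 23.0% of Fabp3 and slightly below Ucp2. The lengths of Ucp3, Fabp3 and Ucp2 include regions at the starts of other genes. By this measure Cd36 was thus not first. Of its 32094 bp of joined H3K27ac, the regions more than 50 kb from its 5′ end had 4529, 949 and 501 bp. Its 5 listed starts lay in 3 separate promoter regions. The outermost had 5779 and 5150 bp, the middle had 10190 and 9456 bp, and the innermost had 4529 and 4146 bp in replicates 1 and 2. The middle region was the longest promoter region of the 10 genes, at places 3176 and 2444. No Maf region lay in this window, and the nearest was 251149 bp from a start, at place 442.

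Fabp3 encodes the heart and muscle fatty acid binding protein of the cytosol (ENSMUSG00000028773.8, chr4:130308595-130315463, plus strand). Its H3K27ac was the same set of regions in both replicates, 8 in each, with 21806 and 20813 bp, and 84.9% of bases were shared. Its promoter region had 8287 and 7337 bp at places 1764 and 1924, and also held the start of the neighbouring Gm10570. H3K27ac covered 80.3% and 73.4% of the 5 kb to either side of the Fabp3 start. The Maf region lay 10002 bp downstream of the start, in an intron of Zcchc17 and in an H3K27ac region of 2775 bp.

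Of these genes, Cd36 is also used by endothelial cells, macrophages and adipocytes, and Lpl and Ucp2 by macrophages and adipocytes. Their longest promoter regions had 6403 bp at Lpl, 10190 bp at Cd36 and 4476 bp at Ucp2. The promoter H3K27ac of the endothelial markers was 1661 to 7109 bp long, that of the macrophage markers 0 to 5596 bp with Mpeg1 at 0, and that of the adipocyte markers 0 to 3054 bp with Adipoq at 0. The skeletal muscle markers had 11143 to 26285 bp. All 3 genes lay below the range of the muscle markers and above that of the adipocyte markers. This held for all 10 genes, from 3185 bp at Cpt2 to 10190 bp at Cd36, and so does not set these 3 apart. Lpl lay within the endothelial range, Ucp2 within the endothelial and macrophage ranges, and Cd36 above both. The part of other cells in these regions was not tested.

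The carnitine palmitoyltransferase genes Cpt1b and Cpt2 had H3K27ac and no Maf region. Cpt1b encodes the muscle form of carnitine palmitoyltransferase 1, which loads acyl groups onto carnitine at the outer membrane and is inhibited by malonyl-CoA (ENSMUSG00000078937.8, chr15:89416405-89425863, minus strand). It had 5 H3K27ac regions in each replicate, with 10785 and 12335 bp. Its promoter region had 3256 and 3484 bp at places 4103 and 4030, and reached 1922 bp upstream and 1603 bp downstream of the start. The next region upstream, of 2376 bp, held the starts of Chkb and C730034F03Rik. The nearest Maf region was 192085 bp away.

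Cpt2 encodes the inner membrane enzyme that turns acylcarnitine back to acyl-CoA (ENSMUSG00000028607.16, chr4:107903981-107923610, minus strand). It had 9 regions with 13432 bp in replicate 1 and 7 with 11109 bp in replicate 2. Its promoter region had 2743 and 3147 bp at places 7502 and 7876, the shortest of the 10 genes in replicate 1, while in replicate 2 that of Hadha was shorter with 3126 bp. A Maf region at place 5008 lay 50297 bp from a Cpt2 start and so fell just outside the window. The H3K27ac region that contained it, 1400 bp long, touched the window at 49326 bp and was counted, and it lay at Lrp8 with Magoh as its nearest start.

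In beta-oxidation, Acadm encodes medium-chain acyl-CoA dehydrogenase, which makes the first double bond in medium-length chains (ENSMUSG00000062908.12, chr3:153922357-153944632, minus strand). It had the smallest summed H3K27ac length of the 10 genes, with 3 regions and 9289 bp in replicate 1 and 4 regions and 9895 bp in replicate 2. Both values lay close to the medians of 9523 and 9817 bp over genes with promoter H3K27ac. Its promoter region of 4805 and 4807 bp, at places 2578 and 2672, was nearly equal in length in both replicates. The joined promoter region of Acadm had 4915 bp and stood at percentile 84.2 among those genes. The Maf region counted for Acadm lay 31902 bp from its start and 279 bp from the start of Rabggtb, a subunit gene of the geranylgeranyl transferase of Rab proteins, with 17 CpG in 281 bp.

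Hadha encodes the alpha subunit of the mitochondrial trifunctional protein, which carries out later steps on long chains (ENSMUSG00000025745.12, chr5:30118304-30155162, minus strand). It shares its promoter region with Hadhb, the gene of the beta subunit, which is transcribed the other way. That region had 3740 and 3126 bp at places 1992 and 1988. Hadha had 4 regions in each replicate, with 11737 and 11440 bp. The Maf region lay 16972 bp upstream of the Hadha start, in an intron of Hadhb and 16862 bp from its start, in an H3K27ac region of 3624 bp. It stood lowest of the 7, at place 4317, and held TGCTGAC, the E-box and a Mef2 site.

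Pdk4 encodes pyruvate dehydrogenase kinase 4, which switches pyruvate dehydrogenase off when fat is burned (ENSMUSG00000019577.6, chr6:5483351-5496309, minus strand). It had 6 regions with 16405 bp in replicate 1 and 7 with 14082 bp in replicate 2. Its promoter region differed most between replicates, with 7263 bp in replicate 1 and 4886 bp in replicate 2, at places 1555 and 2652. The Maf region lay 13314 bp upstream, between genes, with Pdk4 as its nearest start. The H3K27ac region around it, 4128 bp long, stood at places 2464 and 4494.

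Ucp3 had the highest-placed promoter H3K27ac of the 10 genes, at places 598 of 44887 and 862 of 44987 (ENSMUSG00000032942.14, chr7:100472990-100486432, plus strand). This region had 6365 and 6496 bp and reached 3148 bp upstream and 3347 bp downstream of the start. Both Maf regions lay inside it, 1988 bp upstream and 1959 bp downstream of a start, and so about equally far to either side. Ucp3 had 9 regions with 21362 bp in replicate 1 and 8 with 21604 bp in replicate 2.

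Ucp2 encodes the more widely expressed uncoupling protein and lies directly downstream of Ucp3 (ENSMUSG00000033685.13, chr7:100493337-100502020, plus strand). Its own promoter region had 4476 and 4278 bp and the lowest places of the 10 genes in both lists, 9169 and 8375. Its window held 7 regions with 18701 bp in replicate 1 and 8 with 19482 bp in replicate 2, and these sums include the Ucp3 promoter region. The Maf regions counted for Ucp2 lay 22334 and 18385 bp upstream of its start and no nearer.

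**Figure D3:**
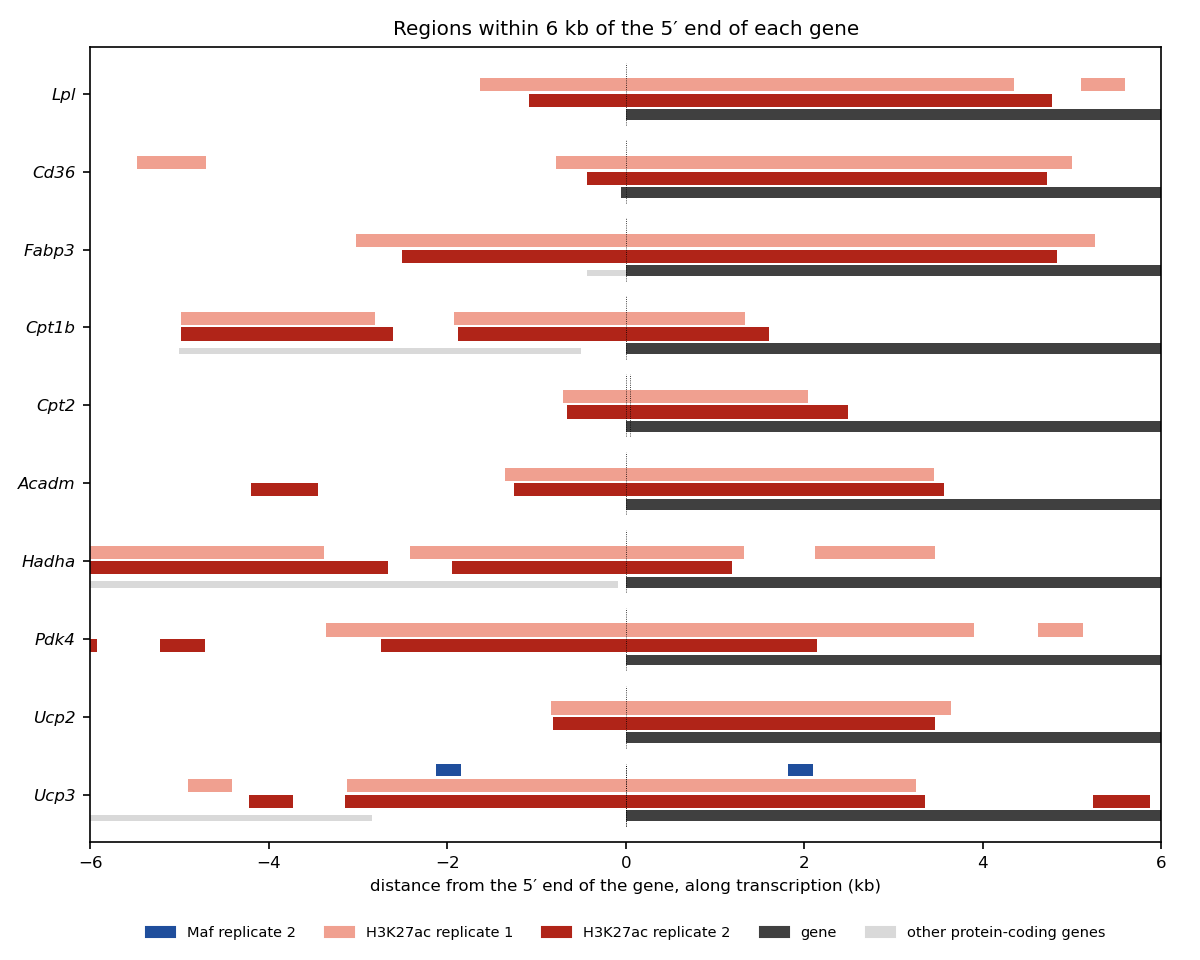
The same map for the 6 kb to either side of each 5′ end, in kb along transcription, with H3K27ac of replicates 1 and 2 in light and dark red and Maf of replicate 2 in blue. Every start in this view lies under H3K27ac in both replicates, and the inner starts of Cd36 fall outside it. Ucp3 is the only 1 of the 10 genes with Maf regions in this view, 1988 bp upstream and 1959 bp downstream.

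Ordered by summed H3K27ac length, Cd36 came first with 25790 to 29658 bp over the replicates, in its wider window. Ucp3 (21362 to 21604 bp) and Fabp3 (20813 to 21806 bp) followed with overlapping ranges, and then Ucp2 (18701 to 19482 bp). Lpl and Pdk4 overlapped each other at 14575 to 16431 and 14082 to 16405 bp. Cpt2, Hadha and Cpt1b overlapped at 11109 to 13432, 11440 to 11737 and 10785 to 12335 bp, and Acadm was last with 9289 to 9895 bp. With 2 replicates, neighbours whose ranges overlap cannot be put in order. The sums count every region in a window, also those at starts of other genes, so the order is that of windows. They include the Ucp2 promoter region for Ucp3 (4476 and 4278 bp) and the Ucp3 promoter region for Ucp2 (6365 and 6496 bp). For Fabp3 they include a region at the Serinc2 start (3175 and 3287 bp). The sums of Cpt1b, Cpt2 and Acadm also include regions at starts of other genes. All 10 genes exceeded the median of all protein-coding genes in both replicates, 5343 and 5338 bp, and Acadm in replicate 1 was the only value under the median of genes with promoter H3K27ac.

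**Figure D4:**
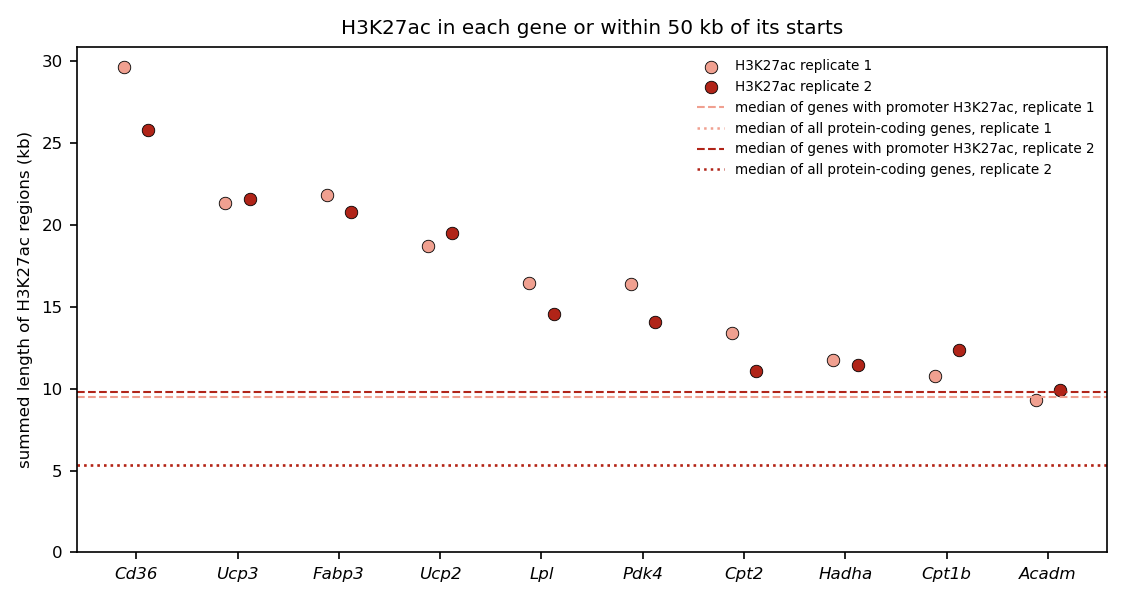
Summed length of the H3K27ac regions counted for each gene (y axis, kb), with replicate 1 in light and replicate 2 in dark red. Dashed lines are the medians of genes with promoter H3K27ac (9523 and 9817 bp) and dotted lines those of all protein-coding genes (5343 and 5338 bp), which lie on top of each other; Cd36 is highest and Acadm lowest in both replicates.

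The promoters of Ucp3 and Cd36 at their 5′ ends were the poorest in CpG, with an observed over expected ratio of 0.197 and 0.210 in 1 kb, at percentiles 21.9 and 23.5 of all protein-coding genes. The ratio was 0.340 for Cpt1b and 0.524 to 0.788 for the other 7 genes. The median was 0.549 over the 10 genes and 0.571 over all. RefSeq promoter sequences, 250 bases before to 50 after a start, were at hand for 8 of the 10 genes (not Lpl and Cpt1b). Ucp3 and Cd36 are shown because they were the only ones with a match to the PPAR direct repeat with up to 2 mismatches. The RefSeq start of Cd36 is an inner one, close to the innermost GENCODE starts but at none of them, and far from the 5′ end at which the CpG ratio was taken. Capitals mark the PPAR match in both, with the CAGCTG that overlaps it in Ucp3 and a TGCTGA in Cd36.
Ucp3 promoter, -80 to -11, chr7:100472911-100472980, plus strand: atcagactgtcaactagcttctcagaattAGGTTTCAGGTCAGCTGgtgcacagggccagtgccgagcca
Cd36 promoter at the inner RefSeq start, -80 to -1, chr5:17835897-17835976, minus strand: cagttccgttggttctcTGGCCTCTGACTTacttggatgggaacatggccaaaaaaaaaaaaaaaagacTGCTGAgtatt
In Ucp3 the match ran from -51 to -39 and CAGCTG from -40 to -35. In Cd36 the match ran from -63 to -51 on the other strand and TGCTGA from -11 to -6. Ucp2 held a CAGCTG from -225 to -220. Among all 32851 RefSeq promoters of this length, 3.86% held such a PPAR match, 16.3% CAGCTG and 19.5% TGCTGA. No ERR, Mef2 or AP-1 match was present in the 8, beside 0.423%, 3.19% and 5.20% of all.

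Among 59 other genes of fatty acid use, 19 had a Maf region in the gene or within 50 kb of a start (32.2%). This was close to the 30.6% of all protein-coding genes and below the 41.2% of those with promoter H3K27ac. Promoter H3K27ac was present at 55 of the 59, beside 58.3% of all protein-coding genes, the exceptions being Fabp5, Acot1, Acaca and Ucp1. In uptake and capillary lipolysis 2 of 9 had a Maf region. Vldlr, a receptor for triglyceride-rich lipoproteins, had its highest at place 527, 7082 bp from a start, while the region counted for the caveolin gene Cav1, at 4359, overlapped no H3K27ac. In activation of fatty acids 3 of 8 had one, the acyl-CoA synthetase genes Acsl3, Acsl6 and Acsl1 at places 1792, 2112 and 3873, 32240 to 49467 bp from a start. In the carnitine shuttle 2 of 5 had one, Crat, the carnitine acetyltransferase, at place 803 and the acylcarnitine carrier Slc25a20 at 4517. The regions counted for Slc25a20 overlapped no H3K27ac.

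In beta-oxidation 4 of 14 genes had a Maf region. Etfb, of the electron transfer flavoprotein, had its region nearest, 3803 bp from a start at place 3107. Acads, the short-chain dehydrogenase, stood at 1525 and the isomerase gene Eci1 at 3623, and Hadhb has the region described for Hadha. Of the malonyl-CoA genes, Mlycd, which breaks malonyl-CoA down, and Acacb, which makes it at the mitochondrion, had regions with best places of 1688 and 4344, and Acaca had none.

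In the fuel switch 3 of 10 had a Maf region. Pdp1, the phosphatase that undoes what Pdk4 does, had 3 regions, the best of them at place 307 and 2190 bp upstream of a start, the highest place among the 59 genes. Pdk2, another kinase of pyruvate dehydrogenase, had its region 1230 bp downstream of a start at place 909, and Pdhb, a subunit of the enzyme, at 2903. In droplet lipolysis 3 of 7 had one, with the lipase activator gene Abhd5 at place 4526 and Plin4 and Plin5 sharing a region at 4065, 48 bp from a Plin5 start. None of the 3 other uncoupling carriers had one. The roles hold few genes each, and no test of a difference between them was made.

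**Figure D5:**
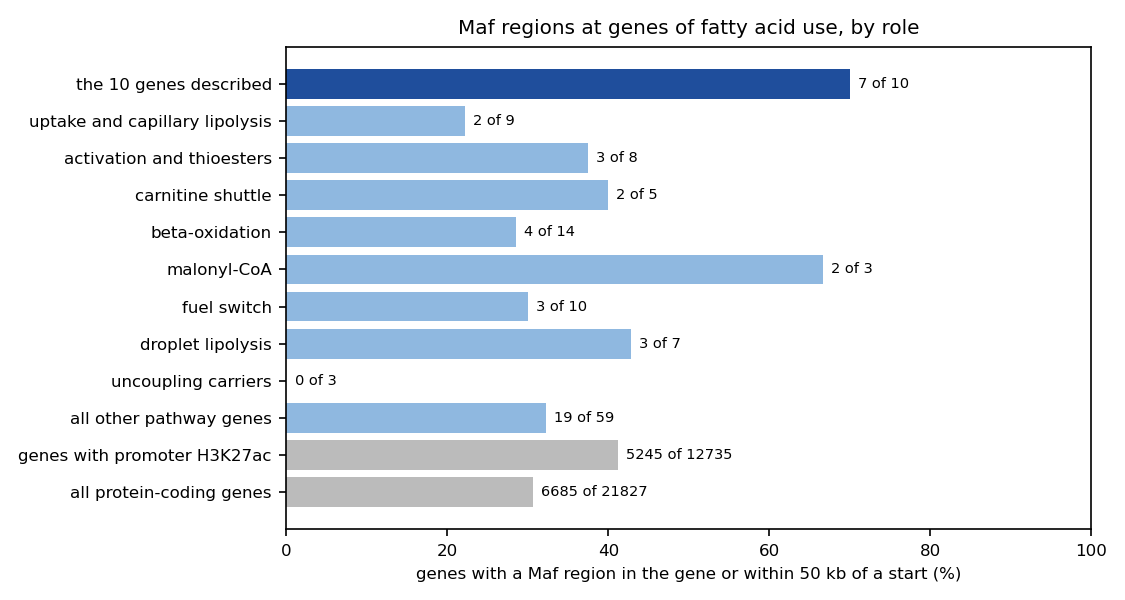
Percent of genes with a Maf region in the gene or within 50 kb of a start (x axis), with the count beside each bar; the 10 genes described are on top (7 of 10), then the other genes of fatty acid use by role and together (19 of 59), then genes with promoter H3K27ac (41.2%) and all protein-coding genes (30.6%). The bars by role rest on 3 to 14 genes each.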

How the data were processed

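Nuclei of gastrocnemius and quadriceps had been cross-linked and sheared, and the chromatin split between the Maf and H3K27ac antibodies. Per the labels and methods, the authors aligned reads to mm10/GRCm38 with Bowtie2 (2.3.2 in the submitters' processing notes, which also name Picard 2.10.3 and bcl2fastq 2.17) and named HOMER. They deposited 1 region list per Maf and H3K27ac sample with start and end positions and a score of 1 for every region. A false discovery rate threshold is stated in the paper for its total of Maf peaks, and whether each deposited list used it is not stated there. Other caller settings and the use of the input are not given in the sources used here. The inputs were not analysed here.

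Here, positions were counted from 1, overlapping or touching regions of a target were joined, and overlap needed 1 base. Starts were the 41433 starts of protein-coding transcripts in GENCODE M21 (basic set) on the autosomes, X and Y. Regions off these chromosomes (8, 9, 0 and 1 for the lists of H3K27ac and Maf replicates 1 and 2) lay in no window. Percentiles count ties as equal shares. The names given are all 10 genes, the up to 3 genes per role with the highest Maf place, genes sharing a promoter region with 1 of the 10, and genes whose start is nearest to a counted Maf region. Genes beyond these, such as Chkb, Lrp8 and Magoh, were named after their values were seen. The 10 genes, the lists and the motifs were chosen with earlier results of these data known. Lists without counts allow no test over samples, so all comparisons are descriptions. The titles number the samples as biological replicates. The alternatives were another window, the nearest gene, each replicate alone, regions in both replicates, the first part of each list, another promoter width and overlap, and the 5′ end only. Region counting was tested on simulated regions. Python 3.11.15, numpy 2.4.6, pandas 2.3.3, SciPy 1.17.1 and matplotlib 3.10.9 were used.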

Additional observations from a re-analysis of the deposited data

How the results depend on the processing

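With a 10 kb window, 2 genes had a Maf region, with 3 Maf regions, 3 of them in H3K27ac, and 42 H3K27ac regions were counted. With 100 kb, 11 Maf regions were counted. By nearest gene, 3 genes had 4 Maf regions, 4 of them in H3K27ac. With the first 50% of each list, 39 H3K27ac regions were counted. Leaving out a replicate in turn, the genes with a Maf region, the Maf regions and those in H3K27ac ranged from 0 to 7 each, at 0 without replicate 2. The same settings gave 59 to 62 H3K27ac regions and 144164 to 152620 bp. The other alternatives stayed within 1.5 times, 36 of 48 in all, among them promoter H3K27ac at 8 to 10 genes.

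No paired analysis was made. Chromatin was split between the Maf and H3K27ac antibodies, but the labels do not say which samples share chromatin, and the results come from no test. The main limits are that every Maf region described comes from replicate 2, that the lists carry no read counts, so neither depth nor the strength of a region is known, and that a window or nearest start does not tie a region to the gene it acts on. A gene without a listed region is not thereby shown to be unbound.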
